A study of Saccharomyces cerevisiae with 4 samples.

Results

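Phosphate uptake in the budding yeast Saccharomyces cerevisiae is described here through 8 genes, PHO84, PHO89, PHO87, PHO90, PHO91, GIT1, SPL2 and PHO86, out of 6212 rows of a spotted 2-colour array series. They were taken as a list of symbols and found in the table by open reading frame. In the first comparison, untreated cells of the strain labelled DBY4741 in which a KanMX cassette replaces REG1 (reg1) were set against untreated wild-type cells of the same strain. In the second, the same reg1 mutant was given 16 mM KOH for 10 min, to about pH 8.0, and set against reg1 cells given 16 mM KCl for 10 min, so that both sides carry the deletion. All cultures grew at 28 °C in the rich glucose medium YPD, at about pH 5.5 before the additions. Each comparison has 2 arrays, experiments 1 and 2, with the dyes exchanged between them. The labels do not say whether the experiments came from separate cultures, so p-values measure only the spread between these arrays, which may be technical, and the number of arrays limits the precision. Each array gives ratios of RNA from whole cultures, so more cells carrying a transcript and more of it per cell cannot be told apart.

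Yeast takes up inorganic phosphate through high-affinity carriers made when phosphate is scarce and through low-affinity carriers that serve when it is plentiful. Pho84 is the high-affinity carrier that moves phosphate with protons, and Pho89 is the one that moves it with sodium and works best at alkaline pH. Pho87 and Pho90 are the low-affinity carriers of the plasma membrane, and Pho91 is a related carrier of the vacuole membrane. Git1 imports glycerophosphoinositol, a source of phosphate, Spl2 restrains the low-affinity carriers, and Pho86 is a protein of the endoplasmic reticulum that Pho84 needs to leave it. When phosphate is scarce, Pho81 inhibits the kinase Pho80-Pho85 and the transcription factor Pho4 turns on PHO84, PHO89, SPL2 and the acid phosphatase genes. Reg1 directs the phosphatase Glc7 against the kinase Snf1 in glucose repression.

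Not all of the 8 genes could be read. PHO84, PHO89, SPL2, PHO86 and PHO91 had values on both mutant arrays, and PHO89, SPL2, PHO86 and PHO91 on both alkali arrays. PHO84 had a value on 1 alkali array, GIT1 on 1 mutant array and on no alkali array, and PHO87 and PHO90 had none on any array, as did 11.4% of the 6013 rows used. Per the labels, small spots and spots weak in both dyes had been left out. Nothing can therefore be said of the low-affinity carriers of the plasma membrane. Ratios are log2, reg1 over wild type or KOH over KCl, so that 1 stands for a 2-fold difference, and a gene was called changed at an adjusted p under 0.05 (limma over every row with values on both arrays, with 1 estimate of the spread from the 4 arrays).

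Both comparisons have a limit of direction or place. REG1 (YDR028C) had -1.10 and -0.96 on the mutant arrays, a mean of -1.03 ± 0.10 (SD, n = 2), and was called lower in reg1 (adjusted p = 0.0313, limma), which sets the first comparison as reg1 over wild type. REG1 had no value on the alkali arrays, and there KOH over KCl is the likely direction, going by the titles and by which channel is listed first. The mutant columns are displaced in part of the table. In a window of 200 rows around PHO84, how many mutant arrays and how many alkali arrays gave a value for a row correlated at r = 0.035 as deposited, and at r = 0.759 with the mutant columns taken from 2 rows below. Around PHO91 these values were 0.006 and 0.676. Around the other 6 genes the highest of 9 displacements was that of no displacement, with r between 0.566 for GIT1 and 0.779 for PHO89. The mutant values of PHO84 and PHO91 are therefore read 2 rows down, and those of the other genes at their own names.

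**Figure D1:**
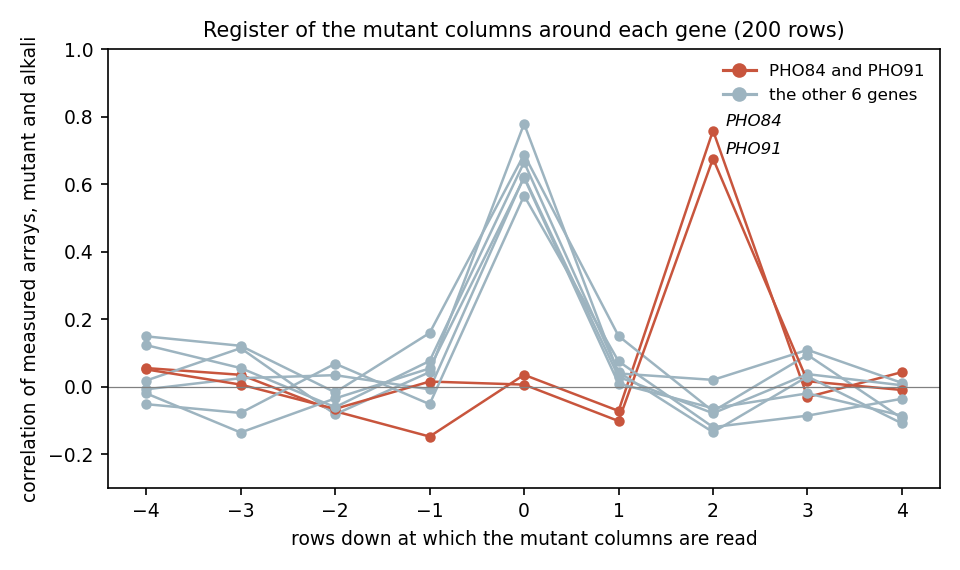
Correlation (vertical axis, r, over 200 rows around each gene) between the numbers of mutant and of alkali arrays with a value for a row, against the number of rows further down at which the mutant columns are read (horizontal axis). The lines of PHO84 and PHO91 peak at 2 rows, with 0.759 and 0.676, and those of the other 6 genes at 0.

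In untreated reg1 cells 4 of the 5 phosphate transporter genes measured on both arrays rose and none fell. PHO89 rose 15.7-fold, PHO84 8.20-fold, SPL2 4.72-fold and PHO86 1.66-fold, and PHO91 did not pass the test. Over all 4765 genes tested, 7.16% were called, 5.2% higher and 1.95% lower in reg1. The median log2 ratio of the 5 genes was 2.24, and that of all genes tested was -0.05. PHO89 ranked 3 from the top of the 4765 genes, PHO84 ranked 10, SPL2 26 and PHO86 318.

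The sodium-coupled carrier gene PHO89 (YBR296C) had log2 ratios of 3.97 and 3.98 on mutant experiments 1 and 2. The mean was 3.97 ± 0.01 (SD, n = 2), with a limma standard error of 0.15, a 95% interval of 3.61 to 4.34 and an adjusted p of 6.01e-04 (limma). The 2 arrays, on which the dyes were exchanged, gave nearly the same value. Such closeness does not hold for every gene. Over all rows with values on both, the 2 mutant arrays correlated at r = 0.594 and the 2 alkali arrays at r = 0.954. On the chromosome PHO89 lies beside genes for maltose use. Past the short annotated gene TYC1, which has no row, the maltose activator gene MAL33 (2.80 and 2.94) and the maltose permease gene MAL31 (1.35 and 1.76) were called higher in reg1 as well (adjusted p = 0.00137 and 0.00771, limma), while PCA1 on the other side had -0.11 and 0.22 (adjusted p = 0.938). These neighbours were looked up after the values of PHO89 were known.

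The proton-coupled carrier gene PHO84 (YML123C), read 2 rows down, had 3.35 and 2.73 on the 2 mutant arrays. Both arrays put it far above wild type, and they lay further apart than those of PHO89. The mean was 3.04 ± 0.44 (SD, n = 2), with a 95% interval of 2.48 to 3.59 and an adjusted p of 0.00458 (limma). The call rests on the shifted reading: in the row as deposited the values beside the name of PHO84 are 0.14 and -0.42, with a mean of -0.14 (adjusted p = 0.715, limma). In the realigned table that pair belongs to GTR1, a gene close to PHO84 that encodes a GTPase of nutrient signalling. Of the genes on either side of PHO84, YML122C (-0.49 and -0.41) and TUB3 (-0.30 and 0.06), an alpha-tubulin gene, did not pass in the realigned table. NDI1, a gene of the mitochondrial NADH dehydrogenase that lies 3 genes from PHO84, was called higher (1.69 and 1.78, adjusted p = 0.00353, limma).

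SPL2 (YHR136C), the gene for the restrainer of low-affinity uptake, had 2.29 and 2.19 on the mutant arrays. The mean was 2.24 ± 0.06 (SD, n = 2), with a 95% interval of 1.86 to 2.62 and an adjusted p of 0.00261 (limma). It is the third member of the set that both arrays place more than 2-fold above wild type. The genes next to it, YCK1, a casein kinase gene (0.15 and 0.51), and ARO9, an aromatic aminotransferase gene (0.35 and 0.70), did not pass the test.

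PHO86 (YJL117W), whose product lets Pho84 leave the endoplasmic reticulum, had 0.65 and 0.82. The mean of 0.73 ± 0.12 (SD, n = 2) had a 95% interval of 0.37 to 1.10 and was called only just (adjusted p = 0.0448, limma). The call was lost without any one of the 4 arrays, with an adjusted p of 0.0591 without mutant experiment 1, 0.0846 without mutant experiment 2 and 0.157 without either alkali array. With 7.16% of all genes called in reg1 over wild type, none called in a list of 4 is no result about that list. Of the other packaging factors of the endoplasmic reticulum, none of 4 measured genes was called, and their median was -0.10. They were SHR3 (-0.16), which amino acid permeases need, GSF2 (0.85), needed by hexose transporters, CHS7 (-0.03), needed by the chitin synthase Chs3, and the cargo receptor gene ERV14 (-0.29). That median was 0.31 without mutant experiment 1 and -0.34 without mutant experiment 2, and GSF2 was called higher without mutant experiment 2, with a replicate block and with a dye term.

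PHO91 (YNR013C), the vacuolar carrier gene, read 2 rows down, had 0.18 and 0.35 in reg1. Its mean of 0.27 ± 0.12 (SD, n = 2) did not pass (adjusted p = 0.316, limma), and the 95% interval of -0.09 to 0.63 leaves out a 2-fold difference. In the row as deposited PHO91 has no mutant value. GIT1 (YCR098C), the glycerophosphoinositol permease gene, had 0.43 on mutant experiment 2 alone and was not tested. By log2 ratio the order in reg1 was PHO89, PHO84, SPL2, PHO86 and PHO91. The 95% intervals of PHO84 and SPL2 overlap, as do those of PHO86 and PHO91, while those of SPL2 and PHO86 lie apart. The interval of PHO89 starts at 3.61, just above the 3.59 at which that of PHO84 ends, and the difference between genes was not tested.

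**Figure D2:**
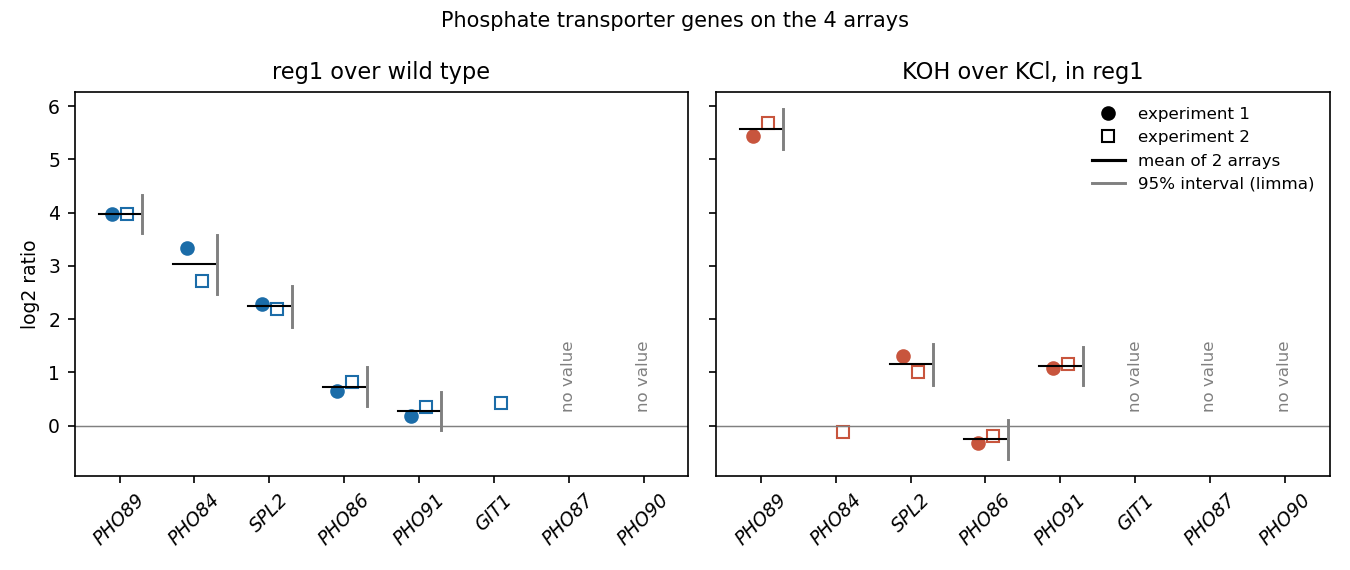
Log2 ratios (vertical axis) of the 8 phosphate transporter genes (horizontal axis) on each array, reg1 over wild type on the left and KOH over KCl in reg1 on the right; filled circles are experiment 1, open squares experiment 2, black lines the mean of 2 arrays and grey bars limma's 95% interval. PHO89 stands highest in both panels, with means of 3.97 and 5.57, while PHO84 has 3.04 in the left panel and a single value of -0.12 in the right.

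After 10 min at about pH 8.0, 3 of the 4 phosphate transporter genes measured on both alkali arrays rose in reg1 cells and none fell. PHO89 rose 47.5-fold over KCl, SPL2 2.23-fold and PHO91 2.17-fold, and PHO86 did not pass. Over all 4584 genes tested 61.8% were called, 29.1% higher and 32.7% lower, so a call alone sets a gene little apart in this comparison. The median log2 ratio of the 4 genes was 1.14, and that of all genes tested was -0.08. PHO89 ranked 8 from the top of the 4584 genes, and SPL2 and PHO91 ranked 675 and 703. These ranks rest on the likely direction: with the sign turned the 3 genes would rank 4577, 3907 and 3881, and the shares called higher and lower would change places.

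PHO89 had 5.45 and 5.69 on alkali experiments 1 and 2. The mean was 5.57 ± 0.17 (SD, n = 2), with a 95% interval of 5.2 to 5.94 and an adjusted p of 9.26e-05 (limma). Both cultures of this comparison lack REG1, so the ratio is one over reg1 cells given KCl. Its neighbours moved by less: MAL33 had 0.86 and 0.64, MAL31 1.44 and 1.23, and PCA1, a P-type metal pump gene, 3.51 and 2.25, all called higher after KOH (adjusted p = 0.00758, 0.00155 and 8.83e-04, limma).

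PHO84 had no value on alkali experiment 1 and -0.12 on experiment 2, where PHO89 had 5.69. With 1 array it was not tested, and its single ratio lies close to 0. The alkali columns are read at their own names, so this value does not depend on the shift. SPL2 had 1.30 and 1.01 after KOH, a mean of 1.16 ± 0.21 (SD, n = 2) with a 95% interval of 0.77 to 1.54 (adjusted p = 0.00178, limma). PHO91 had 1.08 and 1.15, a mean of 1.12 ± 0.05 (SD, n = 2) with a 95% interval of 0.76 to 1.47 (adjusted p = 0.00165, limma). The intervals of SPL2 and PHO91 nearly coincide, and that of PHO89 lies far above both.

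PHO86 had -0.32 and -0.19 after KOH, with a mean of -0.26 ± 0.09 (SD, n = 2), and was not called (adjusted p = 0.181, limma). Its 95% interval of -0.62 to 0.11 leaves out a 2-fold difference in either direction. GIT1, PHO87 and PHO90 had no value on the alkali arrays.

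**Figure D3:**
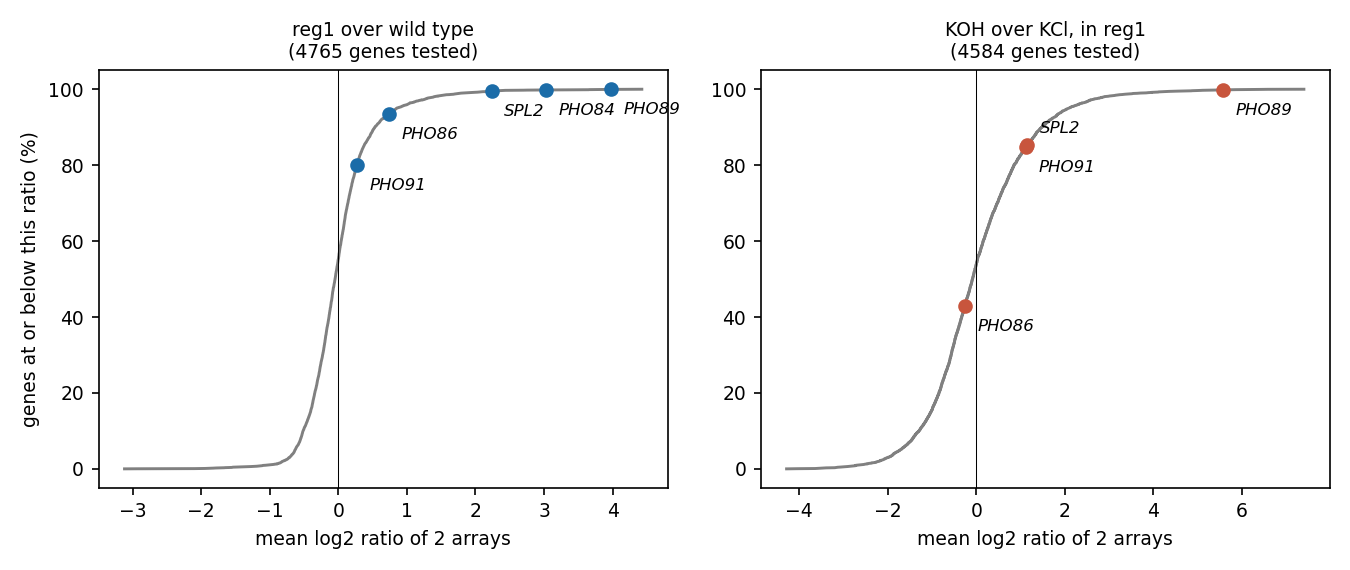
Share of genes (vertical axis, percent) with a mean log2 ratio at or below the value on the horizontal axis, for the 4765 genes tested in reg1 over wild type (left) and the 4584 tested in KOH over KCl (right), with the tested phosphate transporter genes as points. In the left panel PHO89, PHO84 and SPL2 stand at the top end; in the right panel PHO89 alone of the 4 does.

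Of 28 listed genes for phosphatases, polyphosphate and signalling, 23 were tested in the mutant. There 9 rose, none fell and 14 did not pass, with a median of 0.47. Over all genes tested 5.2% were called higher and 1.95% lower in reg1. The count of 9 became 7 with the spread from the mutant arrays alone and 11 after scaling to the same spread. Of the 21 tested after KOH, 8 rose and 5 fell, and the median was 0.24. That share of calls is near the 61.8% called over all genes, and is no result about the pathway. Without alkali experiment 1 the KOH count was 4 up and none down, and without alkali experiment 2 it was 5 up and 2 down.

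Of 6 phosphatase genes measured in the mutant 4 rose and none fell. In the same comparison 5.2% of all genes were called higher and 1.95% lower. The repressible acid phosphatase gene PHO5 had 3.27 and 4.03 (mean 3.65, adjusted p = 0.00179, limma), PHO12 3.54 and 3.49 (mean 3.52, adjusted p = 6.01e-04), the constitutive acid phosphatase gene PHO3 2.49 and 1.57 (adjusted p = 0.0201) and the vacuolar alkaline phosphatase gene PHO8 1.84 and 0.79 (adjusted p = 0.0479). The count of 4 became 3 over rows that need no shift and with the spread from the mutant arrays alone, where PHO8 lost its call. Without mutant experiment 1 PHO3 lost its call as well as PHO8. PHO3 is a close copy of PHO5 and PHO11 of PHO12, so signal may be shared between their spots. After KOH none of 5 phosphatase genes rose, and PHO3 fell, with -2.15 and -1.21 (mean -1.68, adjusted p = 0.00572, limma). PHO5, with -0.43 and -0.71 (adjusted p = 0.066), and PHO12, with 0.21 and -0.01 (adjusted p = 0.584), did not pass. Without alkali experiment 1 no phosphatase gene was called after KOH. With the alkali arrays alone, without either mutant array or with a dye term, PHO5 and PHO13 were called lower too, 3 of 5 in all.

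Among the polyphosphate genes, those of the vacuolar transporter chaperone, which makes polyphosphate from ATP, carried the calls. In the mutant 4 of 7 genes rose and none fell, with a list median of 1.00. They were VTC3 (2.35 and 2.38, read 2 rows down), VTC1 (1.65 and 1.42), VTC4 (1.50 and 1.22) and VTC2 (1.23 and 0.78). Among all genes tested 5.2% were called higher in reg1 and 1.95% lower. After KOH 3 of 7 rose, VTC5 (1.71), VTC3 (1.04) and VTC2 (0.83), and 2 fell, VTC1 (-0.66) and the polyphosphatase gene PPX1 (-0.89). Without alkali experiment 1 it was 2 up and none down. VTC1 thus passed in opposite directions in the 2 comparisons. However, it lost its call after KOH once the arrays were scaled to the same spread, and without either alkali array. Over all genes 61.8% were called after KOH, 29.1% higher and 32.7% lower, so calls in both directions are no result about this list. In the signalling list, PHO81, the gene of the kinase inhibitor, was the only one of 10 called in the mutant, with 1.47 and 1.44 (adjusted p = 0.00513, limma). With 7.16% of all genes called in reg1 over wild type, 1 of 10 is no result about that list. After scaling or with a dye term VIP1 and DDP1, genes of inositol pyrophosphate turnover, were called higher as well, 3 in all, and as deposited PHO80 was called lower. PHO81 rose after KOH as well, with 1.42 and 1.44 (adjusted p = 6.95e-04, limma). PHO4, whose product binds PHO84, PHO89 and SPL2, passed in neither comparison, with means of 0.07 in reg1 over wild type and -0.20 after KOH. Other signalling genes were called after KOH. MSN5 (2.13), the nuclear export receptor of Pho4, VIP1 (1.07), PHO2 (0.55) and the import receptor gene PSE1 (0.50) rose. DDP1 (-0.55) and PHO85 (-0.46) fell. With 61.8% of all genes called after KOH, these calls too are no result about the signalling list. This count of 5 up and 2 down became 2 and none without alkali experiment 1, and 3 and none without alkali experiment 2 or once the arrays were scaled to a common spread.

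**Figure D4:**
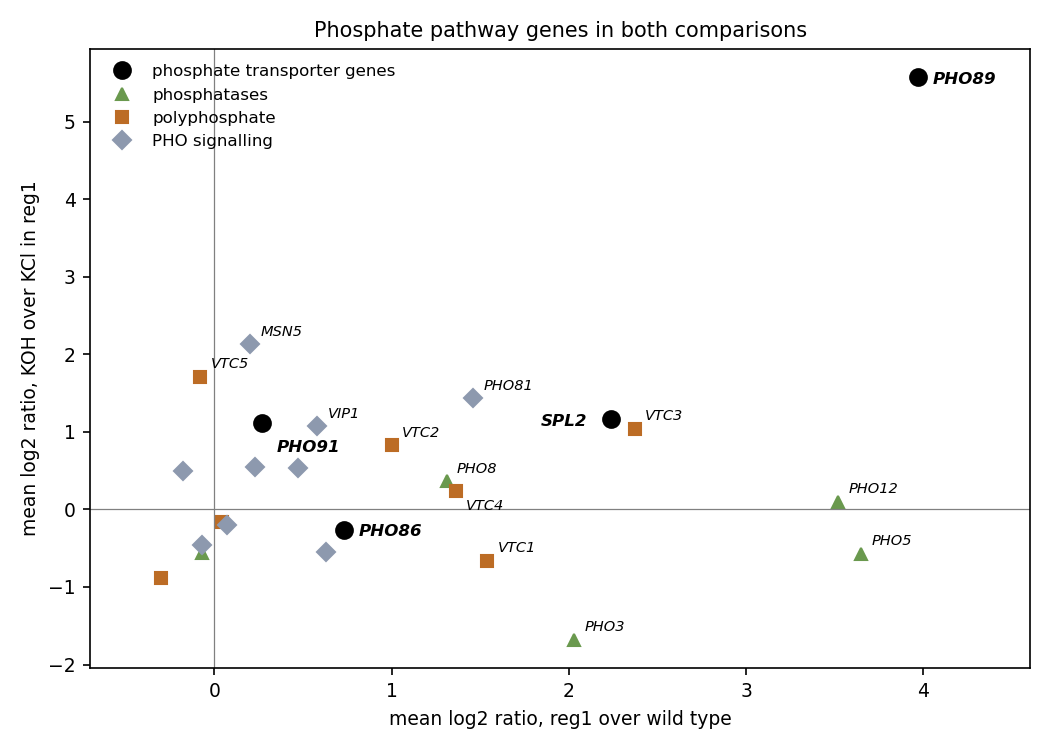
Mean log2 ratio of KOH over KCl in reg1 (vertical axis) against that of reg1 over wild type (horizontal axis), each the mean of 2 arrays, for the 4 phosphate transporter genes with both values and the phosphatase, polyphosphate and signalling genes. PHO89 stands alone at the upper right with 3.97 and 5.57, while PHO5 and PHO12 reach 3.65 and 3.52 in the mutant and lie at -0.57 and 0.10 after KOH.

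Pho87, Pho90 and Pho91 carry an SPX domain, a phosphate-sensing domain, and 7 further SPX protein genes were listed. In the mutant 5 rose and none fell, PHO81, VTC2, VTC3, VTC4 and GDE1 (1.01), a glycerophosphodiesterase gene, with a median of 1.01. The count was 3 as deposited, 3 without mutant experiment 1 or either alkali array, and 4 without mutant experiment 2. After KOH 5 of 7 rose and none fell, PHO81, VTC2, VTC3, VTC5 and GDE1 (1.44), with a median of 1.04. Scaled to the same spread, 4 rose after KOH. Over all genes 5.2% were called higher in reg1 and 29.1% after KOH. Of the genes called, all but GDE1 stand in the polyphosphate or signalling list as well, so they are no separate result. SYG1, a gene akin to phosphate exporters of other organisms, passed in neither, with -0.35 in reg1 over wild type and 0.20 after KOH.

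Git1 takes up what phospholipases release, so 7 genes of glycerophosphodiester supply and use were listed. In the mutant GDE1 and the phospholipase gene PLB2 (1.00) were called higher and 5 did not pass, and no gene was called without any one of the 4 arrays. After KOH 5 of 7 rose and none fell, NTE1 (1.76), PLB3 (1.48), GDE1, PLB1 (1.32) and the acyltransferase gene GPC1 (0.84), with a median of 1.32. The count stayed at 5 after scaling and was 6 as deposited, after centring and with a replicate block. It was lower with either alkali array left out, where the median was 1.30 without experiment 1 and 1.25 without experiment 2. Over all genes 61.8% were called after KOH, 29.1% as higher, and in reg1 over wild type 5.2% were called higher. Whether the list differs from these shares was not tested. Of other phosphate carriers and factors, PIC2, the gene of a mitochondrial phosphate carrier, rose after KOH (0.99 and 0.81, adjusted p = 0.0049, limma), and with 0.57 and 0.88 did not pass in the mutant (adjusted p = 0.0566). It was the only one called of 4 after KOH, and none of the 4 was called without either alkali array or after scaling to a common spread. Without either mutant array GTR1 was called lower as well. None of 3 was called in the mutant, and PIC2 was called higher there as deposited, over rows that need no shift, over rows measured on all arrays, after scaling and with a dye term. The main mitochondrial carrier gene MIR1 had 1.81 on 1 mutant array and -0.25 and -0.04 after KOH.

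Pho89 runs on a sodium gradient and Pho84 on a proton gradient. The sodium pump genes ENA1 (7.40 and 7.40) and ENA2 (5.54 and 5.38) were called higher after KOH. So was the proton pump gene PMA1 (0.58 and 0.60, adjusted p = 0.0139, limma), so all 3 measured genes of that list rose. Among all genes tested 29.1% were called higher after KOH, and whether the list differs from that share was not tested. PMA1 lost its call without either alkali array and after scaling to the same spread, where 2 genes were called. In the mutant PMA1 (0.49) and ENA2 (0.08) did not pass, and ENA1 had no value on either array. After scaling to the same spread 1 of the 2 measured genes was called higher in the mutant. Since ENA2 is nearly identical to ENA1, the spots of both may take up RNA of either gene.

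A further list held 10 genes named as regulators of PHO89 at alkaline pH. After KOH the zinc-finger repressor genes NRG1 (1.66) and RIM101 (1.07), the calcineurin catalytic gene CMP2 (1.12) and RCN1 (0.82), which encodes a calcineurin regulator, rose, and the repressor genes MIG2 (-1.19) and MIG1 (-0.64) and the calcineurin subunit gene CNB1 (-0.66) fell, out of 8 measured. Over all genes 29.1% were called higher and 32.7% lower, so calls in both directions are no result about these regulators. Without alkali experiment 1 it was 3 up and none down, without alkali experiment 2 it was 3 up and 1 down, and scaled to the same spread 3 up and none down. CRZ1, the gene of the calcineurin-activated transcription factor, had 1.59 on 1 alkali array and was not tested. In the mutant MIG1 (1.33, adjusted p = 0.00802, limma) was the only one called of 8, while MIG2 had 0.84 (adjusted p = 0.0624). With 7.16% of all genes called in reg1 over wild type, 1 of 8 is no result about these regulators either. MIG2 was called as well without mutant experiment 1, as deposited, with a replicate block, after scaling and over rows measured on all arrays, which makes 2 genes, and with a dye term NRG1 too, which makes 3.

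Genes most alike in their 4 log2 ratios were sought by Euclidean distance among 4314 other genes measured on all 4 arrays. PHO89 had no close match: GLC3, the glycogen branching enzyme gene, was nearest at a distance of 3.71, then ADR1, a transcription factor gene of glucose repression, at 3.86 and the calmodulin-dependent kinase gene CMK2 at 3.98. GLC3 had means of 1.81 in reg1 over wild type and 4.12 after KOH, both under those of PHO89. SPL2 was nearest to YER076C (0.26), VTC3 (0.29) and NUP53 (0.31), and VTC3 had means of 2.37 in reg1 over wild type and 1.04 after KOH. PHO91 was nearest to YUR1 (0.08), YGR259C (0.08) and TPO2 (0.17), and PHO86 to DSE4 (0.13), RGM1 (0.15) and GPP2 (0.20). PHO84 was not measured on all 4 arrays and has no such match.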

How the data were processed

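The table deposited by the authors holds log ratios for 6212 rows on 4 arrays, read here as log2 because the highest value, 9.1, would as a natural log be an 8955-fold ratio. Per the labels, small spots and spots weak in both dyes were left out. How the arrays were scanned, background-corrected and normalized is not given in the sources used here. Locus tags matched 5662 rows to symbols of assembly R64. The table names no build, so no coordinates are given. The mutant columns of 2794 rows, YKL011C to YPR204W, were read 2 rows further down, and 199 rows, YAL067C to YBR047W, were left out. Mean log2 ratios were tested against 0 with limma 3.58.1 in R 4.3.3 (lmFit, eBayes, all 4 arrays in 1 fit, prior of 3.68 degrees of freedom) over rows measured on both arrays, adjusted by the Benjamini-Hochberg method. The fit was tested on simulated data. The 8 genes, which are all named, and the 9 context lists were chosen with earlier results of these data known. The reading of displaced rows was likewise chosen after the data were seen. Alternatives changed the register, centring, scaling, dye, block, filter, prior, call rule and arrays used. The fit with a dye term gave every gene the same spread, so its p-values and calls do not reflect a gene's own spread.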

Additional observations from a re-analysis of the deposited data

How the results depend on the processing

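The calls of PHO89 and SPL2 in both comparisons, and of PHO91 after KOH, held under all 13 alternatives tried for each. PHO84 in the mutant held under 10, between 2.73 and 4.49, with a highest adjusted p of 0.0285 (limma), and turned to -0.14 as deposited. PHO86 in the mutant lost its call in 5 of 13 (0.157 with the spread from the mutant arrays alone). The count of phosphate transporter genes called stayed at 3 after KOH and between 3 and 4 in the mutant, where it was 3 to 3 with 1 array left out. Over all genes the mutant count of 341 (248 higher, 93 lower) became 217 over rows that need no shift, 618 after scaling to the same spread (363 higher, 255 lower), 801 with a dye term, 153 with the spread from the mutant arrays alone, 172 at 2-fold or more on both arrays, and 153 to 240 with 1 array left out. The alkali count of 2832 (1334 higher, 1498 lower) became 1239 after scaling (682 and 557), 1297 at 2-fold or more on both arrays (681 and 616), and 1230 to 3275 with 1 array left out. Higher calls also led after centring (1419 and 1345), without alkali experiment 1 (664 and 566) and without alkali experiment 2 (799 and 673), so which direction held more calls depended on these settings. Where an array of the comparison was left out, its lone partner is assumed to vary like the other comparison. Without an alkali array, only the mutant arrays are left to give the mutant spread, so that count is no separate result. The cause of the other changes was not tested. Whether experiments of the same number share more than the number is not known. Across 4315 genes the differences between experiments 1 and 2 of the 2 comparisons correlated at r = -0.092. The dyes were exchanged between the same experiments, so this value cannot tell a shared batch from dye effects. The replicate block, with the experiment number as a term, gave 420 calls in the mutant and changed no call among the 8 genes. Signal over background is unknown, so weak spots carry no bound.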
